A study of Mus musculus with 8 samples.

Results

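The clonotypes described here were the α-chain rearrangements of the T-cell receptor (TCR) that held 10 or more of the 10000 reads of a mouse. They were selected on their read counts in each of the 8 α-chain libraries, and 301 of the 53249 clonotypes met the rule. The other 52948 clonotypes, with fewer than 10 reads, served as the comparison within the same mouse. The 301 high-read clonotypes carried 276 distinct nucleotide sequences of the complementarity-determining region 3 (CDR3) and 263 distinct amino acid sequences. All mice were C57BL/6 females of 6 to 8 weeks, inoculated with B16F10 melanoma cells, given 300 mg/kg cyclophosphamide on day 3, infused with ex vivo-primed Pmel-1 CD8+ T cells on day 5 and injected with 10000 IU of interleukin-2 on 3 days. The 3 mice of the CTX group received nothing further, and the 5 mice of the CTX_CD4 group received 200 μg anti-CD4 antibody on days 10, 17 and 24. On day 25, endogenous CD8+ T (en-T) cells, which lack the Thy1.1 marker of the infused Pmel-1 cells, were sorted from lymph node and spleen, and each mouse gave 1 library from 100 ng RNA. The files hold receptor chains and no marker genes, so the sorted identity could not be checked in them.

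The α-chain of a TCR is assembled in the thymus by joining 1 V segment to 1 J segment, and the junction forms the CDR3, the loop that contacts the presented peptide. Enzymes trim the segment ends, and terminal deoxynucleotidyl transferase adds bases that no germline segment encodes. A join with few or no added bases can arise independently in many cells and animals, and such rearrangements are known as public clonotypes. A join with many added bases is usually private to 1 animal. After antigen contact or homeostatic division, the descendants of a T cell keep its rearrangement.

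The name "expanded" that read counts invite could not be checked here, because no molecular identifiers were described and reads cannot separate more cells of a clone from more receptor RNA per cell. Intervals and limits given here therefore cover the counting error alone. In a library of 10000 reads, 0 reads allow a share of up to 0.03% (3 reads), so absence from a mouse means a level below that limit. The V name of a clonotype is uncertain among near-identical copies in the duplicated V region of chromosome 14. Accordingly, V segments were compared by family. Family names can be uncertain too, since the same nucleotide sequence could carry V names of different families in different mice.

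The CDR3 sequences of the clonotypes with 10 or more reads in several mice show what recurred. Bases assigned to V or J are in lower case, and bases that the deposited positions assign to neither are in capitals. These 7 were picked from the 11 recurrent ones to show joins with 0 and with several unassigned bases.
TRAV14N-1 with TRAJ22, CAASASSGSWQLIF: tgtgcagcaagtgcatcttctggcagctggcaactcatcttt
TRAV3-4 with TRAJ22, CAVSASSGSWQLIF: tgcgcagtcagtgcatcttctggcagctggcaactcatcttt
TRAV7D-2 with TRAJ9, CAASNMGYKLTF: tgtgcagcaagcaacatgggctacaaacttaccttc
TRAV7N-5 with TRAJ40, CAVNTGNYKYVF: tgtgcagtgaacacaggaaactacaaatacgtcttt
TRAV16N with TRAJ30, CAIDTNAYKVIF: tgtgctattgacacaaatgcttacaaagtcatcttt
TRAV14N-1 with TRAJ30: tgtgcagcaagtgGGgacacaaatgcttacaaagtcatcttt
TRAV12N-3 with TRAJ22, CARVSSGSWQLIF: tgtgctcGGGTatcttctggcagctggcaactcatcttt

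The next 7 were among the most abundant clonotypes of single mice, shown because they are what a large private rearrangement looked like beside the recurrent ones. All were detected in 1 mouse only, except the join of TRAV7D-4 with TRAJ33, which 2 mice held.
TRAV14D-3-DV8 with TRAJ24, CTX_CD4 mouse 5: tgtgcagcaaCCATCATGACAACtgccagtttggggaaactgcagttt
TRAV16N with TRAJ31, CTX_CD4 mouse 5: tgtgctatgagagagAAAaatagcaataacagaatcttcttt
TRAV7D-4 with TRAJ33, CTX_CD4 mouse 1: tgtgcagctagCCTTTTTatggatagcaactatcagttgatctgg
TRAV6N-7 with TRAJ11, CTX_CD4 mouse 3: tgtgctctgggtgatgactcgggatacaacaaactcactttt
TRAV7N-5 with TRAJ45, CTX_CD4 mouse 4: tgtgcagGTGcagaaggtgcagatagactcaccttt
TRAV1 with TRAJ4, CTX mouse 2: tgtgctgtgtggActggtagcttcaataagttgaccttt
TRAV14N-1 with TRAJ11, CTX mouse 1: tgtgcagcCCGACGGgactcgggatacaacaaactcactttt

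High-read clonotypes numbered 12, 12 and 15 in CTX mice 1 to 3. In CTX_CD4 mice 1 to 5 there were 43, 21, 35, 61 and 102. They held 2.42%, 2.75% and 2.95% of the reads of the CTX mice and 9.78%, 3.69%, 8.54%, 12.16% and 25.88% of those of the CTX_CD4 mice. Every CTX_CD4 mouse was above every CTX mouse, with mouse 2 nearest to the CTX group, but these counts are what the clonotypes were selected on and were not tested. The 95% Wilson interval was 25.0% to 26.7% in CTX_CD4 mouse 5 and 2.64% to 3.30% in CTX mouse 3. Most high-read clonotypes were near the limit: 29 of 39 in the CTX group and 170 of 262 in the CTX_CD4 group had 10 to 19 reads. Clonotypes with 50 or more reads were 4 of the 39 in the CTX group and 22 of the 262 in the CTX_CD4 group, 9 of the 22 in mouse 5.

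The clonotypes on both sides of the rule of 10 reads are given as a description. Just outside it lay 157 clonotypes with 8 or 9 reads (28 in CTX and 129 in CTX_CD4 mice), and just inside lay 67 with 10 or 11 reads (14 and 53). Of those just outside, 49.0% were found in another mouse and 49.0% had 0 unassigned nucleotides, and of those just inside 50.7% and 50.7%. Their mean CDR3 lengths were 13.7 and 13.2 residues, and their mean numbers of unassigned nucleotides were 1.51 and 1.40.

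**Figure D1:**
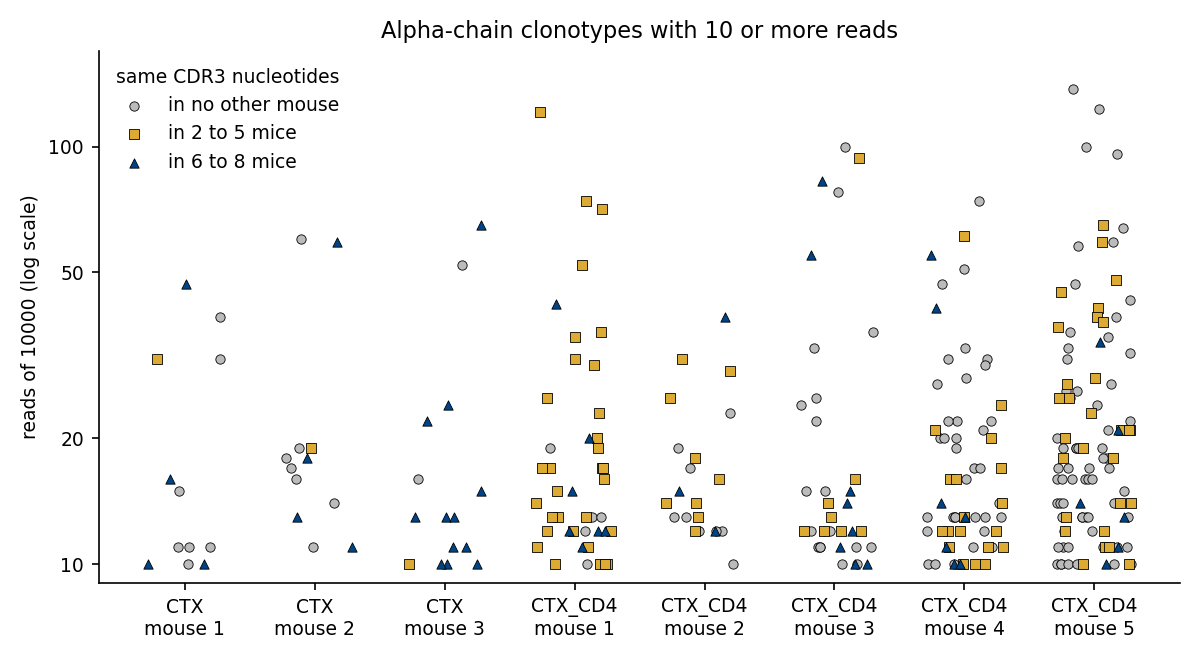
Reads of each of the 301 high-read α-chain clonotypes (y axis, log scale, of 10000 reads) in the 8 mice (x axis, spread sideways at random within a mouse). Symbols give the number of mice in which the same CDR3 nucleotide sequence was detected, and the tallest columns of grey points, private to 1 mouse, stand in CTX_CD4 mice 4 (35 clonotypes) and 5 (67 clonotypes).

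The plot of reads by mouse separates private from shared clonotypes. Of the 301, 151 were found in no other mouse and 28 were found in all 8 mice. Private high-read clonotypes numbered 7, 7 and 2 in the CTX mice and 5, 9, 19, 35 and 67 in the CTX_CD4 mice, and held 128, 155 and 68 against 67, 131, 459, 749 and 1740 reads. The groups overlapped in both values, since CTX_CD4 mice 1 and 2 lay within or close to the CTX range. The count of CTX_CD4 mouse 1 depended on mouse 2, the only other mouse to hold 18 of its high-read clonotypes. When these mice were not counted for each other, mouse 1 had 23 private high-read clonotypes with 588 reads, and the numbers (9 to 67 in CTX_CD4 mice) no longer overlapped with the 2 to 7 of CTX mice, whereas the reads still did. Both follow from the clonotypes that the rule selected and were not tested. High-read clonotypes found in 6 or more mice numbered 4, 4 and 12 in the CTX mice and 7, 3, 8, 7 and 6 in the CTX_CD4 mice. The widely shared clonotypes were similar in number in both groups, and the private ones spanned the wider range.

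Before sharing was compared, 1 pair of libraries had to be considered. Of the 43 high-read clonotypes of CTX_CD4 mouse 1, 35 (81.4%) were also detected in CTX_CD4 mouse 2, and 18 of these were in no further library. In mouse 2, only 2 of the 35 had 10 or more reads, and all 35 together had 144 reads. In the opposite direction, 4 of the 21 high-read clonotypes of mouse 2 were detected in mouse 1, none of them there alone. Over the 55 other ordered pairs of mice, the share detected ranged from 8.82% to 80.0%, highest for the clonotypes of CTX mouse 3. The share of 81.4% was thus little above the next, but in those pairs at most 5 high-read clonotypes of a mouse were found in 1 other mouse alone. Whether the shared sequences came from the animals or from handling of the libraries was not tested. Results that rest on sharing are therefore also given without counting these mice for each other, other than those by number of mice and for V families.

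High-read clonotypes were shared between mice more often than low-read clonotypes in each of the 8 mice. The share found in another mouse was 41.7%, 41.7% and 86.7% in the CTX mice and 88.4%, 57.1%, 45.7%, 42.6% and 34.3% in the CTX_CD4 mice. Among low-read clonotypes it ranged over 25.8% to 28.9%. The mean over mice was 54.8% ± 21.2 (SD, n = 8) against 27.4% ± 1.16, a difference of 27.3 percentage points (exact two-sided sign-flip test over 8 mice, p = 0.00781, adjusted p = 0.0117). This p is the smallest that 8 mice allow, and the adjustment (Benjamini-Hochberg) covers the 6 measures compared. A sequence held by several mice counts as shared in each, so the 8 values are not independent, whereas the test treats them as such. CTX mouse 3 and CTX_CD4 mouse 1 were far above the others. Without counting CTX_CD4 mice 1 and 2 for each other, the value of mouse 1 was 46.5%, and the difference was 22.8 percentage points, again in 8 of 8 mice (exact p = 0.00781).

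The high-read clonotypes were found 511 times in another mouse, with a median of 3 reads there. In 146 of these findings (28.6%) the other mouse had a single read, and in 126 it had 10 or more. By sharing, the groups overlapped, at 56.7% ± 26.0 (SD, n = 3) in CTX and 53.6% ± 21.1 (SD, n = 5) in CTX_CD4 mice (p = 0.732, two-sided, in the exact Mann–Whitney test). This comparison moved with its settings. The CTX_CD4 minus CTX difference of −3.03 percentage points was −11.4 without counting CTX_CD4 mice 1 and 2 for each other (exact p = 0.929) and −17.8 when sharing was by amino acid sequence, V and J (exact p = 0.125). With a limit of 5 reads it was −19.8 and the groups did not overlap (exact p = 0.0357, not adjusted).

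Of the 11 CDR3 nucleotide sequences that had 10 or more reads in several mice, 1 had them in all 8. It was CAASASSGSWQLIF, encoded by TRAV14N-1 (GRCm38, chromosome 14, 53166626 to 53167178, plus strand) and TRAJ22 (54197248 to 54197307). Its reads were 47, 59 and 65 in the CTX mice and 42, 39, 55, 55 and 34 in the CTX_CD4 mice. It was the most abundant clonotype in CTX mice 1 and 3 and in CTX_CD4 mouse 2. At 0.65% of the reads (Wilson 95% interval, 0.510% to 0.828%) it peaked in CTX mouse 3, and no mouse was below 34 reads. In the same amino acid sequence 17 nucleotide forms were found over the 8 mice, with 3 to 7 forms per mouse.

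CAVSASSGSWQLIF uses the same J segment with TRAV3 and was also detected in all 8 mice, at 5, 8 and 10 reads in the CTX mice and 8, 12, 9, 6 and 14 in the CTX_CD4 mice. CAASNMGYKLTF, a join of TRAV7D-2 with TRAJ9 (54209393 to 54209450), had 10, 18 and 4 reads against 12, 9, 15, 14 and 4. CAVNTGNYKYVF, a join of TRAV7N-5 with TRAJ40 (54177921 to 54177981), had 16, 0 and 15 reads against 11, 15, 2, 10 and 11. By the deposited positions these 3 joins had 0 unassigned nucleotides, although a comparison with the germline segments left 2 in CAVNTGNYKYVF. Reads of all 3 varied within both groups over ranges that overlapped. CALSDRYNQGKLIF was likewise spread over 8 mice, at 12 reads or fewer. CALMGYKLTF, found in 6 mice, had 2, 11 and 11 reads in the CTX mice and 0, 6, 3, 5 and 0 in the CTX_CD4 mice. It was high-read in CTX mice 2 and 3 only.

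Other recurrent clonotypes were concentrated in a few CTX_CD4 mice. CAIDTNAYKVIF had 39 reads in CTX_CD4 mouse 5 and 12 in mouse 4, and 3 and 1 in CTX mice 1 and 3. Its V name was TRAV16N where it was high-read, but over its 4 mice TRAV13D-4 and TRAV8D-1 were also assigned. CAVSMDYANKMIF had 41 reads in CTX_CD4 mouse 4 and 10 in mouse 3, and 6 or fewer elsewhere. Both were joins with 0 unassigned nucleotides. The join of TRAV14N-1 with TRAJ30, with 2 unassigned bases, had 25 and 20 reads in CTX_CD4 mice 2 and 5 and single reads in mice 1 and 3. A join of TRAV3N-3 with TRAJ12, also with 2, had 17 and 23 reads in CTX_CD4 mice 4 and 5 and a single read in mouse 1. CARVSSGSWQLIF, with 4 unassigned bases, had 16 reads in each of CTX_CD4 mice 2 and 4 and was not detected in the other 6. None of the last 3 nucleotide sequences was detected in a CTX mouse, where the limit was 0.03% of reads. By amino acid sequence, however, the TRAV14N-1 join was found in all 8 mice, in 8 nucleotide forms. The TRAV3N-3 join and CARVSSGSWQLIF were in 3 and 2 mice by amino acid sequence as well. Since these clonotypes were chosen for their reads, the pattern was not tested.

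**Figure D2:**
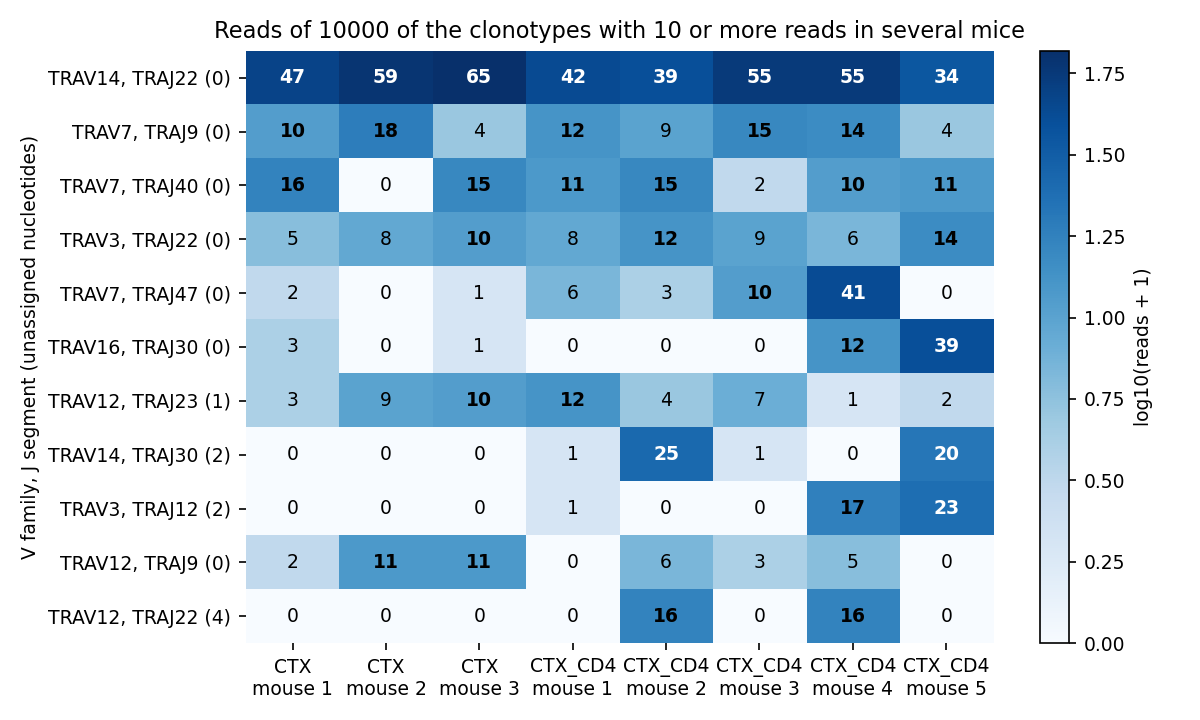
Reads of the 11 clonotypes with 10 or more reads in several mice, with 1 row per CDR3 nucleotide sequence (V family, J segment and, in parentheses, unassigned nucleotides) and 1 column per mouse. Shading is log10(reads + 1) and bold marks 10 or more reads; the TRAV14 join with TRAJ22 is dark in every column, and the TRAV12 join with TRAJ22 had 16 reads in CTX_CD4 mice 2 and 4 and 0 in the other 6.

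Counted by amino acid sequence, 17 CDR3 had 10 or more reads in several mice, and 10 of these had more than 1 nucleotide form among the high-read clonotypes. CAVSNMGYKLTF was high-read in 3 mice with 3 different nucleotide forms, and its V names belonged to the TRAV7 and TRAV9 families. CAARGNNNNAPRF and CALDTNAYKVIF were each high-read in 2 mice with a different form in each.

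The most abundant private clonotype had 138 reads, 1.38% of the library (Wilson 95% interval, 1.17% to 1.63%), in CTX_CD4 mouse 5. It joined TRAV14D-3-DV8 (chromosome 14, 53078452 to 53079045) with TRAJ24 (54195638 to 54195700). The deposited positions left 13 bases unassigned in it, and a comparison with the germline segments left 6. The same mouse held the only other high-read clonotype with 13, a join of TRAV9 with TRAJ26 at 14 reads, in which the germline comparison left 3. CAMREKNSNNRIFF, in the same mouse, had 123 reads. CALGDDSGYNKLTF had 100 reads in CTX_CD4 mouse 3, and it was private although its join had 0 unassigned nucleotides. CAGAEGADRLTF had 74 reads in CTX_CD4 mouse 4. In the CTX group, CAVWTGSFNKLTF had 60 reads in mouse 2, and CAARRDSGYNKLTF, with 7 unassigned bases, had 39 in mouse 1. The join of TRAV7D-4 with TRAJ33 had 121 reads in CTX_CD4 mouse 1 and 9 in mouse 2.

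The joins of high-read clonotypes held fewer unassigned nucleotides than those of low-read clonotypes. Here, an unassigned nucleotide is a CDR3 base between the deposited end of V and start of J, set to 0 where the segments overlapped. The mean was 2.17, 1.33 and 0.60 in the CTX mice and 2.00, 1.81, 1.54, 1.69 and 2.21 in the CTX_CD4 mice. Low-read clonotypes had 2.20 to 2.24 in every mouse. The difference was −0.55 nucleotides ± 0.52 (SD, n = 8; exact two-sided sign-flip test, p = 0.00781, adjusted p = 0.0117). High-read values were lower in all 8 mice, from a difference of −0.00521 in CTX_CD4 mouse 5 to −1.60 in CTX mouse 3. When bases were instead compared with the GRCm38 germline segments, the difference was −0.83 (exact p = 0.00781). However, against low-read clonotypes with 2 to 9 reads the difference was −0.27 and did not pass (exact p = 0.188). With clonotypes weighted by reads it was −0.28, in 5 of 8 mice, and did not pass either (exact p = 0.375).

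Joins with 0 unassigned nucleotides made up 50%, 50% and 60.0% of the high-read clonotypes of the CTX mice and 25.6%, 33.3%, 45.7%, 36.1% and 32.4% of those of the CTX_CD4 mice. Low-read clonotypes had 29.8% to 31.4%. High-read clonotypes were above low-read ones in 7 of 8 mice, all but CTX_CD4 mouse 1, by a mean of 10.97 percentage points ± 11.6 (SD; exact sign-flip test, p = 0.0469). After adjustment over the 6 measures the difference did not pass (adjusted exact p = 0.0563). Pooled over mice, 110 of the 301 high-read clonotypes had 0 unassigned bases, 54 had 1 and 42 had 2, and the highest number was 13.

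Between the groups, these joins did not overlap. Their share was 53.3% ± 5.77 (SD, n = 3) in CTX and 34.6% ± 7.31 (SD, n = 5) in CTX_CD4 mice (p = 0.0357 in the exact Mann–Whitney test, two-sided, and no smaller p is possible with 3 and 5 mice). Adjusted over the 6 measures, p was 0.214. With the germline comparison the difference was −13.3 percentage points (exact p = 0.393), and with clonotypes weighted by reads it was −17.8 (exact p = 0.143). The CTX values rest on 12, 12 and 15 clonotypes. Low-read clonotypes had 30.6% ± 0.555 in CTX and 30.7% ± 0.617 in CTX_CD4 mice.

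**Figure D3:**
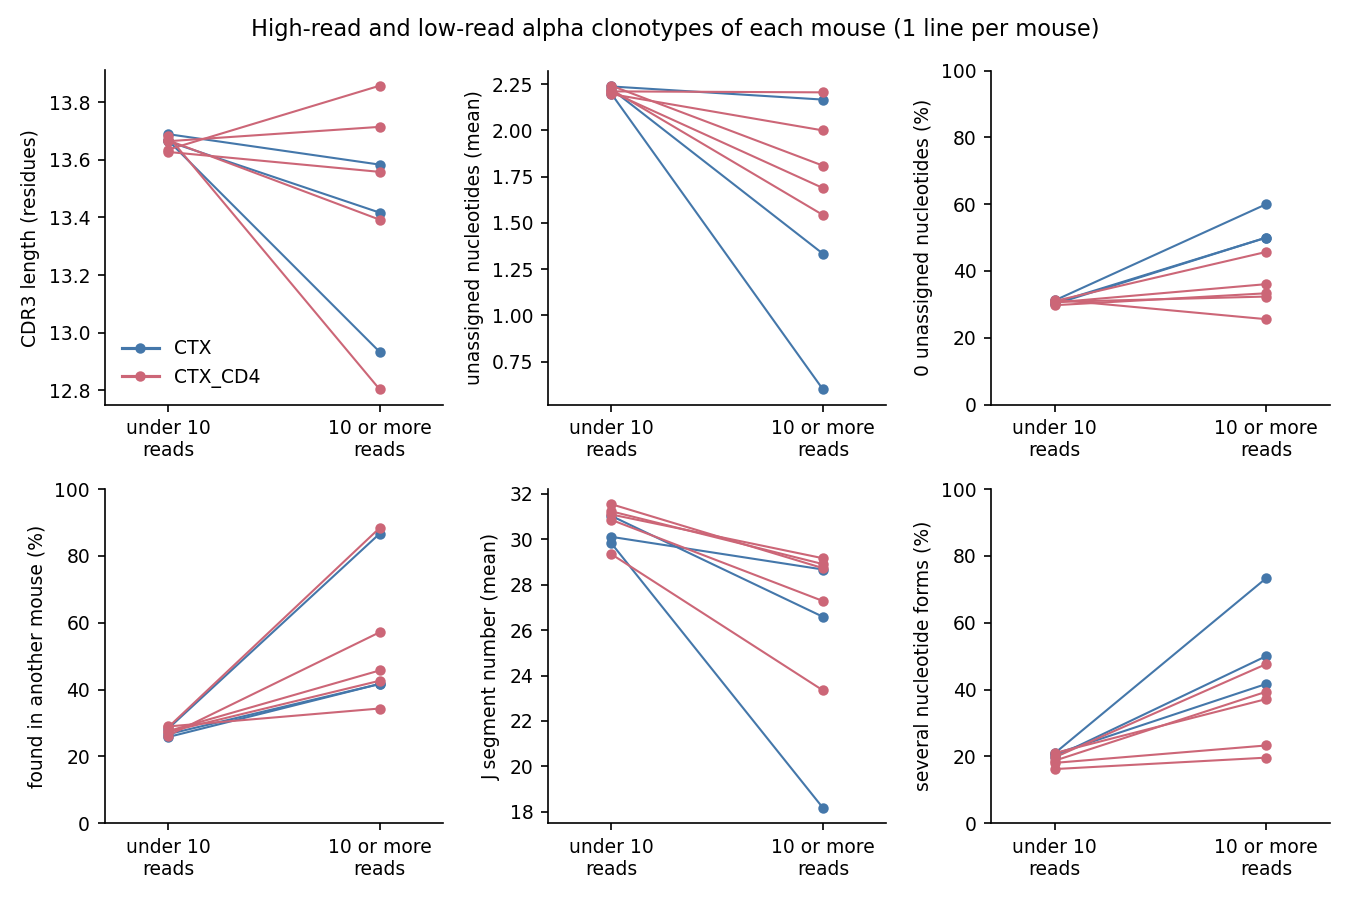
Means or shares of 6 measures in low-read (under 10 reads) and high-read (10 or more reads) clonotypes, with 1 line per mouse, blue for CTX and red for CTX_CD4; the axes of CDR3 length, unassigned nucleotides and J segment number do not start at 0. All 8 lines rise for sharing and for several nucleotide forms and fall for J segment number and unassigned nucleotides, whereas those of CDR3 length run both ways; CTX mice 1 and 2 coincide at 50% of joins with 0 unassigned nucleotides.

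In the lines of the 6 measures, low-read clonotypes of the 8 mice start from nearly 1 point and high-read clonotypes spread widely. CDR3 length was 13.4, 13.6 and 12.9 residues in the CTX mice and 13.6, 13.9, 13.7, 12.8 and 13.4 in the CTX_CD4 mice, against 13.7 ± 0.0211 (SD, n = 8) in low-read clonotypes. The difference, −0.25 residues ± 0.38, did not pass (exact p = 0.0859). High-read CDR3 ranged from 7 to 17 residues, and none was longer. Among the far more numerous low-read clonotypes the range was 4 to 48, but only 0.397% had 18 residues and fewer still had any 1 greater length.

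An amino acid sequence was encoded by several nucleotide forms within a mouse for 50%, 41.7% and 73.3% of the high-read clonotypes of the CTX mice. In the CTX_CD4 mice these shares were 23.3%, 47.6%, 37.1%, 39.3% and 19.6%. Low-read clonotypes had 16.2% to 21.0%. High-read clonotypes were above low-read ones in 8 of 8 mice, by 22.1 percentage points ± 15.5 (SD; exact sign-flip test, p = 0.00781, adjusted p = 0.0117). A form 1 base away from an abundant sequence can be a copying error. In total, 191 low-read clonotypes (0.361%) differed by 1 base from a high-read clonotype of the same mouse. When only forms at least 2 bases apart were counted, the difference was 18.1 percentage points, in 8 of 8 mice (exact p = 0.00781). The groups overlapped, at 55.0% ± 16.4 in CTX (n = 3) and 33.4% ± 11.7 in CTX_CD4 mice (n = 5; exact Mann–Whitney test, p = 0.0714). The CTX_CD4 minus CTX difference of −21.6 percentage points was −6.82 when only forms at least 2 bases apart were counted (exact p = 0.571).

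The join features went with sharing. Among high-read clonotypes found in another mouse, 83 of 150 (55.3%) had 0 unassigned nucleotides, and among private ones 27 of 151 (17.9%). Low-read clonotypes had 51.9% and 22.6% in the same classes. Of the 51 high-read clonotypes found in 6 or more mice, 44 (86.3%) had 0 unassigned nucleotides and 44 (86.3%) had several nucleotide forms. With private clonotypes only, the high-read minus low-read difference was −0.32 unassigned nucleotides (lower in 5 of 8 mice; exact p = 0.188). For joins with 0 unassigned nucleotides it was −5.82 percentage points (exact p = 0.0703), and for several nucleotide forms −0.423 percentage points (exact p = 0.898). The private clonotypes numbered as few as 2 in CTX mouse 3. Without counting CTX_CD4 mice 1 and 2 for each other, 82 of 132 shared (62.1%) and 28 of 169 private (16.6%) high-read clonotypes had 0 unassigned nucleotides. Among the private ones the differences were then −0.17 unassigned nucleotides (exact p = 0.5), −7.39 percentage points of joins with 0 (higher in 1 of 8 mice; exact p = 0.0391) and −0.574 percentage points for several nucleotide forms (exact p = 0.891). These comparisons were added after the data were seen.

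**Figure D4:**
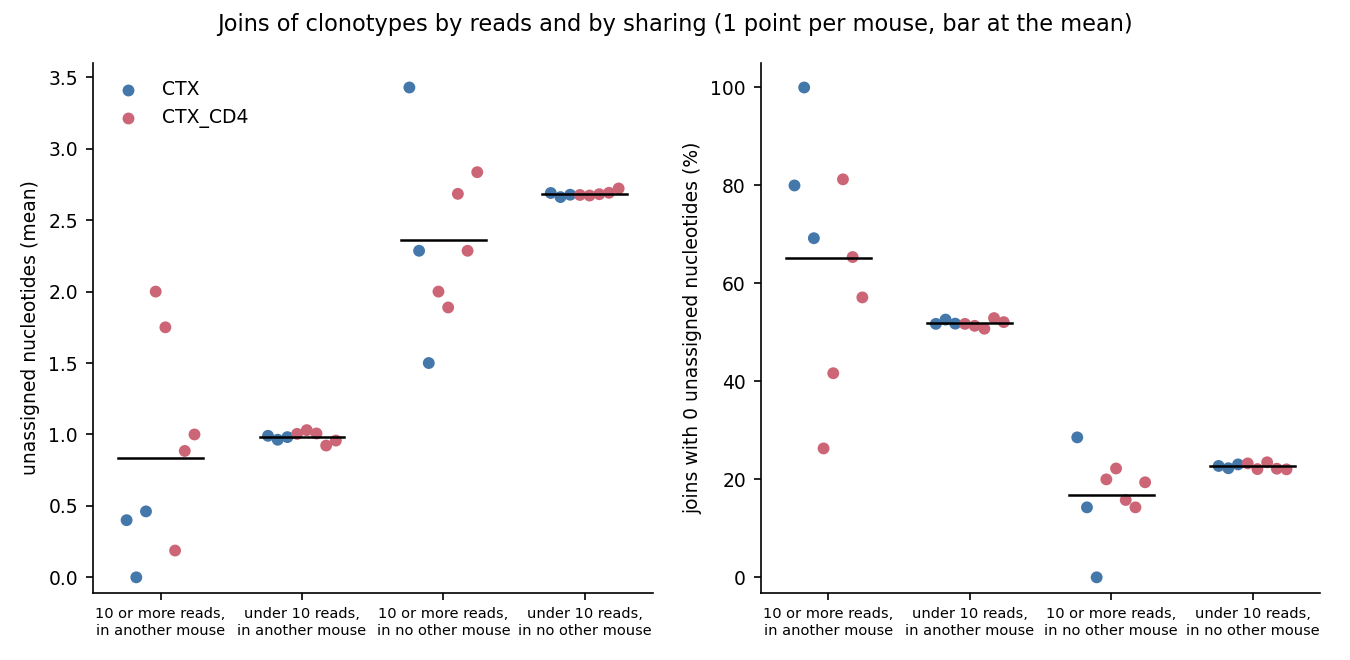
Mean unassigned nucleotides (left) and share of joins with 0 unassigned nucleotides (right) for high-read and low-read clonotypes found or not found in another mouse; each point is 1 mouse, blue for CTX and red for CTX_CD4, and the bar is the mean of the mice. In the left panel, high-read clonotypes found in another mouse lie between 0 and 2.00 and private ones between 1.5 and 3.43, on both sides of the tight low-read points of the same class.

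In the points by sharing, the shared high-read clonotypes of CTX_CD4 mice 1 and 2 stand apart from the rest of their class, at 2.00 and 1.75 unassigned nucleotides, against 0 to 1.00 in the other 6 mice. Only 26.3% of the 38 shared high-read clonotypes of mouse 1 had 0 unassigned nucleotides, and 41.7% of the 12 of mouse 2. In the other mice this share was 57.1% to 100%. Of the 38, 7 were in 6 or more mice, and these had a mean of 0.429 unassigned nucleotides. Without counting mice 1 and 2 for each other, mouse 1 had 20 shared high-read clonotypes with a mean of 0.70, and 45.0% had 0, while mouse 2 kept its values.

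High-read clonotypes used J segments with lower numbers. TRAJ segments are numbered against the direction of transcription, so that TRAJ61 (54155005 to 54155076) lies nearest to the V segments and TRAJ1 (54218814 to 54218842) farthest from them. The mean J number was 26.6, 18.2 and 28.7 in the CTX mice and 29.2, 28.9, 23.3, 27.3 and 28.7 in the CTX_CD4 mice. For low-read clonotypes it was 29.3 to 31.5. High-read values were lower in 8 of 8 mice, with a mean difference of −4.27 ± 3.33 (SD; exact sign-flip test, p = 0.00781, adjusted p = 0.0117). TRAJ41 to TRAJ61 made up 16.8% ± 7.42 of high-read and 26.8% ± 1.42 of low-read clonotypes, and TRAJ1 to TRAJ20 29.6% ± 13.9 and 22.7% ± 2.08. With private clonotypes only, the difference in J number was −0.375 (exact p = 0.883), and −0.66 (exact p = 0.797) without counting CTX_CD4 mice 1 and 2 for each other.

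The 301 clonotypes used 41 J segments, led by TRAJ22 (28 clonotypes, 18 distinct sequences), TRAJ30 (22), TRAJ9 (21), TRAJ23 (18) and TRAJ26 (16). Of the 23 J segments with 5 or more high-read clonotypes, 0 (0%) differed from low-read use at an adjusted p under 0.05 in the exact sign-flip test, and 4 had an unadjusted p under that limit. With 8 mice, a single segment among 23 cannot go below an adjusted p of 0.18. TRAJ9 reached this value, with 16.7%, 16.7% and 13.3% of high-read clonotypes in the CTX mice and 6.98%, 4.76%, 14.3%, 4.92% and 2.94% in the CTX_CD4 mice, against 2.85% ± 0.318 of low-read clonotypes. It was higher in 8 of 8 mice. TRAJ39, TRAJ15 and TRAJ34, with 5, 6 and 7 high-read clonotypes, were the other 3, each lower in at least 6 of 8 mice. All 3 had 0 high-read clonotypes in each CTX mouse. With so few clonotypes per mouse, 0 is a likely count for a rare segment and always lies below the low-read share.

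V families were compared in the same way. The clonotypes used 19 families, and the 12 with 5 or more held 286 of the 301. Use of 3 of these 12 families (25%) differed at an adjusted p under 0.05, and 5 had an unadjusted p under that limit. TRAV14 was used by 16.7%, 16.7% and 13.3% of high-read clonotypes in the CTX mice and by 16.3%, 23.8%, 25.7%, 14.8% and 12.7% in the CTX_CD4 mice. Its mean of 17.5% ± 4.75 was above the 12.5% ± 1.28 of low-read clonotypes, higher in 8 of 8 mice (exact sign-flip test, adjusted p = 0.0313). This result rested on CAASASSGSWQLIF. Without that sequence TRAV14 use was 13.5% ± 5.67, higher in 5 of 8 mice (exact p = 0.594).

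TRAV6 and TRAV4 were used less by high-read clonotypes. For TRAV6 the shares were 0%, 0% and 6.67% in the CTX mice and 6.98%, 9.52%, 5.71%, 0% and 10.8% in the CTX_CD4 mice, with 10.6% ± 0.987 among low-read clonotypes. For TRAV4, only 5 clonotypes were high-read, 0 in the CTX mice and 1, 0, 0, 1 and 3 in the CTX_CD4 mice, with a low-read share of 3.19% ± 0.187. Both families were lower in 8 of 8 mice (exact sign-flip test, adjusted p = 0.0313). A count of 0 among 12 to 15 clonotypes is a coarse measure. At the low-read share of TRAV4, 0 is the likeliest count in so few clonotypes, and 0 always lies below that share. The sign-flip test takes rises and falls as equally likely, so its p for TRAV4 can be too small. Leaving out any 1 mouse ended all 3 calls, because 7 mice give no p below 0.0156, which for 3 of 12 families stays above 0.05 after adjustment. With private clonotypes only, 0 of 9 families differed, where 0 also had an unadjusted p under 0.05. TRAV4 was not among these 9, having fewer than 5 private high-read clonotypes, so its call was not tested there.

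The TRAV7 family was the most frequent, with 67 high-read clonotypes. It was listed as the V family of the Pmel-1 α-chain, an assignment that was not derived from these data. Its shares were 41.7%, 25% and 20% in the CTX mice and 13.95%, 23.8%, 17.1%, 27.9% and 21.6% in the CTX_CD4 mice, against 17.1% ± 1.00 of low-read clonotypes. TRAV7 was higher in 6 of 8 mice (exact sign-flip test, p = 0.0313, adjusted p = 0.0938). Whether infused cells contributed to it was not tested. TRAV8, with 5 high-read clonotypes, was lower in 7 of 8 mice (adjusted p = 0.0938 in the same exact test). It had 0 in each CTX mouse, and the limit of the test given for TRAV4 holds for it too. For TRAV3, 32 of the 33 high-read clonotypes were in CTX_CD4 mice, which held 262 of all 301 high-read clonotypes. TRAV3 shares were 6.98% to 14.8% in CTX_CD4 mice and 0%, 0% and 6.67% in CTX mice, against 6.79% ± 0.697 of low-read clonotypes. For TRAV12, CTX mice had 16.7%, 8.33% and 40.0% and CTX_CD4 mice 2.86% to 11.6%, against 14.7% ± 1.33 of low-read clonotypes. The difference between the groups was not tested for single families.

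**Figure D5:**
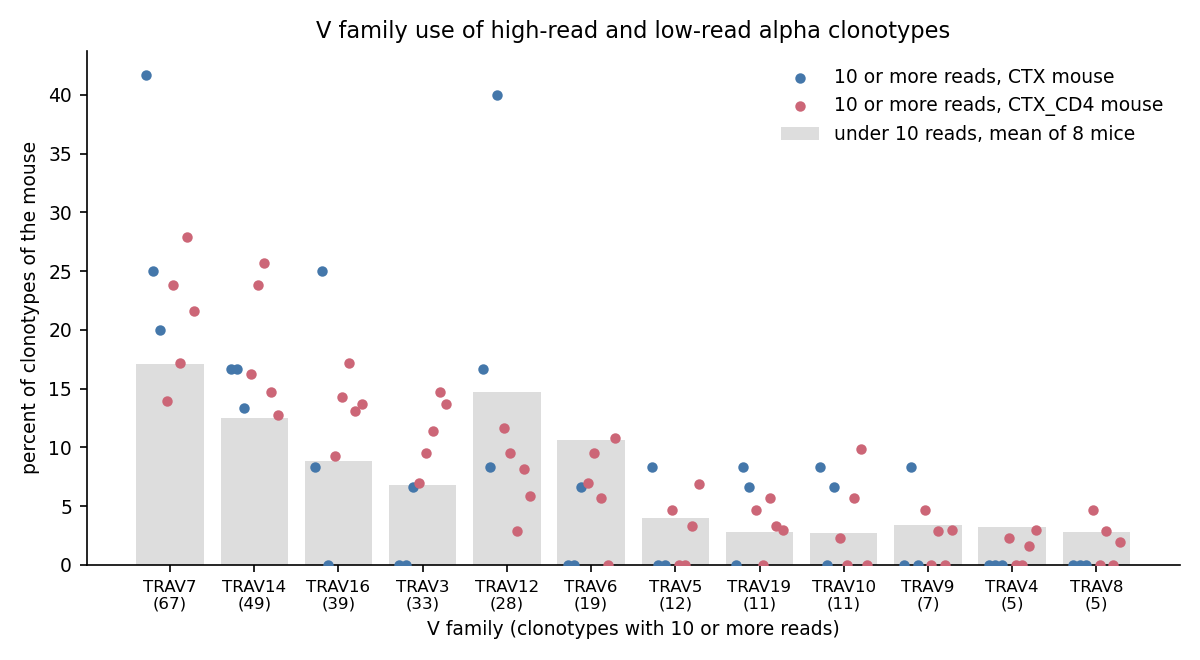
Share of the high-read clonotypes of each mouse (points, blue for CTX and red for CTX_CD4) that used each of the 12 V families with 5 or more high-read clonotypes, whose number is in parentheses, over the mean share among low-read clonotypes of the 8 mice (grey bars). All 8 TRAV14 values are at 12.7% or more, and all TRAV4 values are under 3%.

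Rearrangements with the segments of unconventional T cells were few in both classes. TRAV11 with TRAJ18, the segments of the invariant natural killer T-cell receptor, were joined in 1 of the 301 high-read clonotypes (0.332%) and in 30 low-read clonotypes (0.0567%). The high-read clonotype, in CTX_CD4 mouse 1, had 23 reads, a CDR3 of 16 residues and 4 unassigned bases, and segment names alone do not identify an invariant chain. All such joins together had 4 to 10 reads in CTX and 2 to 25 in CTX_CD4 mice. TRAV1 with TRAJ33, the segments of mucosal-associated invariant T cells, were joined in 0 high-read and 12 low-read clonotypes (0.0227%), with at most 6 reads in a mouse. TRDV segments, the V segments of the δ-chain, gave 1 high-read clonotype (0.332%), also in CTX_CD4 mouse 1, and 450 low-read ones (0.850%).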

How the data were processed

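The authors amplified TCR chains from RNA by nested PCR (SMARTer kit), sequenced them on a MiSeq, trimmed reads with Scythe and Sickle, aligned them in MiXCR, extracted chains with VDJtools and reduced every library to 10000 reads by down-sampling. The version of MiXCR and its reference library were not given in the sources used here; the submitters' processing notes name bcl2fastq and mm10. The deposited counts are reads per clonotype, the deposited fraction is the count divided by 10000, and the deposited V and J positions are CDR3 base numbers from which unassigned nucleotides were computed. Only α-chain libraries were used; β-chain libraries were not analysed here.

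High-read clonotypes and all lists were chosen with earlier results of these data known. Each measure was averaged over clonotypes within a mouse, and the mouse was the replicate. High-read minus low-read differences were tested by the exact two-sided sign-flip test (256 patterns) and groups by the exact Mann–Whitney test, two-sided (56 splits), with Benjamini-Hochberg adjustment over the 6 measures, or over the V families or J segments with at least 5 high-read clonotypes. This minimum left out families that are rare among high-read clonotypes, such as TRAV13 (3 high-read, 2510 low-read clonotypes). Sharing was by CDR3 nucleotide sequence. The clonotypes named were the most abundant of each mouse, those with 10 or more reads in several mice and the 2 most abundant private ones of each mouse, from which some are given, and features were named at an unadjusted p under 0.05, most others by their number of clonotypes. Alternatives covered the read limit, low-read classes, CDR3 ends, read weights, overlaps, definitions of sharing, tests, the replicate block and each mouse left out; germline ends, private clonotypes (also with CTX_CD4 mice 1 and 2 not counted for each other), forms at least 2 bases apart and omission of the clonotype found at 10 or more reads in 8 mice were added after seeing the data. Germline ends and coordinates came from GENCODE vM21 on GRCm38, where all 53249 clonotypes found both segments by name; deposited and germline counts of unassigned bases differed by at most 1 in 70.0% of clonotypes. Python 3.11.15, numpy 2.4.6, pandas 2.3.3, scipy 1.17.1 and matplotlib 3.10.9 were used, and the tests were checked on made-up values with known answers.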

Additional observations from a re-analysis of the deposited data

Results flagged for a closer look

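The high-read minus low-read difference in joins with 0 unassigned nucleotides separated the groups at the unadjusted p and did not pass after adjustment. It was 22.8 percentage points ± 5.25 (SD, n = 3) in CTX mice and 3.91 ± 7.41 (SD, n = 5) in CTX_CD4 mice, a CTX_CD4 minus CTX difference of −18.8 (exact Mann–Whitney test of the differences, two-sided, p = 0.0357, adjusted over 6 measures p = 0.214). Every CTX mouse was above every CTX_CD4 mouse, and 1 of the 5 CTX_CD4 mice, mouse 1, was below 0 at −5.85. Among high-read clonotypes alone, the group difference was −13.3 points with germline ends (exact p = 0.393) and −17.8 when weighted by reads (exact p = 0.143). No mouse stood apart from its group by Dixon's test in the 8 values tested in the CTX_CD4 group.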

How the results depend on the processing

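Merging clonotypes of 1 mouse with the same sequence changed no value, since each sequence was listed once, and a limit of 20 reads left 2 high-read clonotypes in CTX mouse 2 and was not run. The high-read minus low-read difference in joins with 0 unassigned nucleotides was 19.3 points with a limit of 5 reads (exact p = 0.00781, 8 of 8 mice) and 13.7 with germline ends (exact p = 0.0156, 7 of 8). High-read minus low-read sharing passed under all 8 alternatives (16.9 to 32.2 percentage points). With a limit of 5 reads, the difference in CDR3 length passed (−0.20, exact p = 0.0234), and CTX_CD4 minus CTX differences of 0.757 unassigned nucleotides, −19.8 points in sharing and −26.4 points in several forms passed (exact p = 0.0357 each). Against clonotypes of 2 to 9 reads, −0.265 unassigned nucleotides and 5.65 points of joins with 0 unassigned nucleotides did not pass. With clonotypes weighted by reads, these were −0.275 and 6.95 and did not pass (exact p = 0.375 and 0.211), the group difference in such joins was −17.8, and that in CDR3 length turned to −0.0169. Overlaps left negative gave a group difference of 2.03 nucleotides (exact p = 0.0357), germline ends 0.0929 nucleotides (exact p = 1) and −13.3 points of joins with 0 unassigned nucleotides, and the exact signed-rank test p = 0.0547 for the 10.97 points. With private clonotypes only, chosen after seeing the data, differences were 0.0527 residues, −0.32 nucleotides, −5.82 points of joins with 0 unassigned nucleotides, −0.375 in J number and −0.423 points in several forms, and 0 V families were called. With CTX_CD4 mice 1 and 2 also not counted for each other, they were 0.206, −0.168, −7.39 (exact p = 0.0391), −0.66 and −0.574. The cause was not tested.

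The replicate numbers do not pair the mice, which were different animals (correlations of deviations −0.0644, 0.239 and −0.15). With mice 1 to 3 paired as a replicate block, the group differences were 0.399 residues, 0.417 nucleotides, −18.5 points of joins with 0 unassigned nucleotides, 7.08 points in sharing (turned), 2.66 in J number and −19.0 points in several forms, where 3 pairs cannot go below an exact p of 0.25.

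Leaving out each mouse gave high-read minus low-read ranges of −0.323 to −0.166 residues, −0.626 to −0.399 nucleotides, 8.43 to 13.4 points of joins with 0 unassigned nucleotides, 22.7 to 30.5 points in sharing, −4.68 to −3.22 in J number and 17.8 to 24.8 points in several forms. The joins passed in 1 of 8 of these fits, without CTX_CD4 mouse 1 (13.4 points, exact p = 0.0156), and the CDR3 length in 1, without CTX_CD4 mouse 2 (−0.323, exact p = 0.0313), against 8 of 8 for the other 4. The CTX_CD4 minus CTX ranges were −0.035 to 0.319 residues, 0.0994 to 0.883 nucleotides, −21.5 to −15.4 points, −11.7 to 11.97 points in sharing, −0.142 to 5.11 in J number and −28.3 to −12.4 points in several forms, where 7 mice cannot reach p under 0.05. V families and J segments gave 0 calls without any 1 mouse.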

Other observations

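Of the 301 high-read clonotypes, 15 (4.98%) had a CDR3 that did not run from cysteine to phenylalanine or tryptophan, against 3.62% of low-read clonotypes. Of these, 13 ended in leucine, and they were all 13 high-read clonotypes joined to TRAJ7 or TRAJ44, among them CAVSMGRSNNRLTL with 19 reads in CTX mouse 2. The other 2 did not start with cysteine.

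Deposited V and J positions overlapped in 87 high-read clonotypes (28.9%) and in 21.3% of low-read clonotypes. In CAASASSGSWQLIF they overlapped by 18 bases, and a comparison with the germline segments assigned 13 bases to V and 29 to J with no overlap.

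In all 8 mice together, 100 of the 301 high-read clonotypes had at least 1 low-read clonotype 1 base away in the same mouse, and these neighbours held 486 reads.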
